A study of Mus musculus with 8 samples.

Results

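The sites described here were LRH-1 peaks of mouse ovary that were present both 4 h after and before the ovulatory signal and lay in chromatin that was open at both times. LRH-1 (NR5A2) is an orphan nuclear receptor that binds DNA as a monomer, and in granulosa cells, the somatic cells around the oocyte, it is required for ovulation and acts on genes of steroid synthesis. FAIRE (formaldehyde-assisted isolation of regulatory elements) recovers DNA that is poor in nucleosomes, so a FAIRE peak marks open chromatin such as promoters and enhancers. The members were chosen by the measured peak lists themselves: a member was a peak of the LRH-1 list after hCG that shared at least 1 bp with a LRH-1 peak before hCG and with a FAIRE peak of each time. This rule found 1372 of the 9413 LRH-1 peaks after hCG (14.6%, exact binomial 95% interval 13.9 to 15.3), which were 34.8% of the 3940 LRH-1 peaks that persisted.

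Wild-type C57BL/6 mice (labelled LRH-1 +/+) aged 22 to 25 days had received 5 IU of equine chorionic gonadotropin (eCG), a stimulus of follicle growth. The group after the signal was sampled 4 h after 5 IU of human chorionic gonadotropin (hCG), which acts through the receptor of luteinising hormone and was given 44 h after eCG. The group before the signal was sampled at 0 h. For FAIRE, ovaries were punctured to collect the granulosa cells. LRH-1 was measured by chromatin immunoprecipitation (ChIP), and although its label also names granulosa cells, its protocol starts from pieces of ovary (n = 5 per condition), so its peaks can hold sites of other ovarian cells. The peak lists hold no expression values, so the labelled cell type was not checked against marker genes here. Each label states 2 replicates, and each assay has 1 list per time. Peaks are not replicates of a condition, the members were chosen on these lists, and no test was made. Intervals of shares and medians cover the spread over peaks only and say nothing of the spread between mice. In such bulk material, fewer cells with a site and a weaker site in every cell cannot be told apart.

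The LRH-1 lists held 9413 peaks after and 5886 before hCG, and the FAIRE lists 22791 after and 21431 before. All positions are in build mm9. Sequences of these sites and their nearest genes are not reported, because no sequence or annotation of that build was used here.

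Members mapped almost 1 to 1 between the lists. The 1372 members matched 1365 distinct LRH-1 peaks before hCG, and lay in 1360 distinct FAIRE peaks after hCG and 1360 before it. For 1341 members (97.7%) each of the other 3 lists gave a single partner, shared with no other member. At all 1372 members the FAIRE peaks of the 2 times also overlapped each other. Of the 11535 FAIRE peaks after hCG that had been present before, 1360 held a member (11.8%, 95% interval 11.2 to 12.4).

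Few members sat near the edge of the rule. The smallest of a member's 3 overlaps had a median of 288.5 bp, was below 100 bp in 39 members and below 50 bp in 15. The smallest overlaps were 10 bp at chr4:122898546-122898833, 13 bp at chr2:84667308-84667622 and 15 bp at chr2:3200105-3200591. Just outside the rule, chr4:15992134-15992413 missed a FAIRE peak after hCG by 1 bp and chr8:97362446-97362765 missed one before hCG by 1 bp. The next nearest, chr2:118424181-118424521, missed a FAIRE peak before hCG by 6 bp. In all, 33 other LRH-1 peaks would have met the rule with gaps of up to 100 bp.

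LRH-1 enrichment at the members is given as the authors' fold enrichment at the summit. It ranged from 3.2 to 17 after hCG, with a median of 6.28 (95% interval of the median 6.13 to 6.41), and from 3.59 to 21.8 before hCG, with a median of 6.21 (6.13 to 6.39). The medians of the whole lists were 5.31 after and 5.75 before hCG. Members were frequent at the top of each list when its peaks were ordered by q-value. They made up 423 of the best-scoring 942 peaks after hCG (44.9%) and 272 of the best-scoring 589 before hCG (46.2%, counted as LRH-1 peaks before hCG that overlap the other 3 lists). Over the whole lists the same shares were 14.6% after and 23.3% before hCG. Other persistent sites with a FAIRE peak at that time were frequent at the top too. Those with one after hCG only were 93 of the best-scoring 942 after hCG (9.87%), and 327 of all 9413. Those with one before hCG only were 158 of the best-scoring 589 before hCG (26.8%), and 873 of all 5886. Persistent sites without a FAIRE peak at that time were frequent at the top after hCG only. After hCG, sites with no FAIRE peak were 184 of the 942 (19.5%) and 1368 of all 9413, and sites open before hCG only 125 (13.3%) and 873. Before hCG, sites with no FAIRE peak were 100 of the 589 (17%) and 1370 of all 5886, and sites open after hCG only 24 (4.07%) and 326. Weak members existed too, and 38 members lay in the worst-scoring 10% of the list after hCG and 74 in that of the list before hCG.

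Of the 423 members in the best-scoring 10% of the list after hCG, 201 (47.5%) were also in that of the list before hCG, which held 270 members. The best-scoring member of both lists was chr1:65087351-65087786, with a fold enrichment of 14.9 after and 18.6 before hCG and a FAIRE score of 127 after and 163 before hCG. The next best of both lists, chr11:53953543-53954271, had a fold enrichment of 16.8 after and 18.6 before hCG and a FAIRE score of 351 after and 681 before hCG. These 2 ranked 4 and 6 in the whole LRH-1 list after hCG, and 2 and 3 in that before it. The third best after hCG, chr14:101370054-101370574, was 15.7-fold enriched after and 13.2-fold before hCG. The fourth, chr5:125889300-125889744, was 15.1-fold enriched after hCG (rank 8) and 10.1-fold before it (rank 137), and the fifth, chr15:83135816-83136393, 11.8-fold after and 13.5-fold before hCG. The third best before hCG, chr3:52579051-52579463, was 12.6-fold enriched after hCG (rank 35) and 19.6-fold before it (rank 4). The fourth, chr13:100236689-100237328, was 12.1-fold enriched after and 17.5-fold before hCG, and the fifth, chr2:165948236-165948826, 11.3-fold after and 16.7-fold before hCG.

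The largest fold enrichment of any member after hCG was 17 at chr4:28103911-28104314, where it was 21.8 before hCG, and it was followed by the sites on chromosomes 11 and 14 named above. The smallest after hCG were 3.2 at chr4:47307195-47307653, 3.25 at chr11:74828987-74829255 and 3.51 at chr6:71884262-71884585. These 3 were 5.06-fold, 4.19-fold and 4.45-fold enriched before hCG.

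Across members, the fold enrichments after and before hCG had a Spearman's rho of 0.52 (n = 1372 sites, each from 1 list per time). The same rho was 0.47 for persistent sites with a FAIRE peak before hCG only, 0.41 for those with one after hCG only and 0.44 for those with none.

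**Figure D1:**
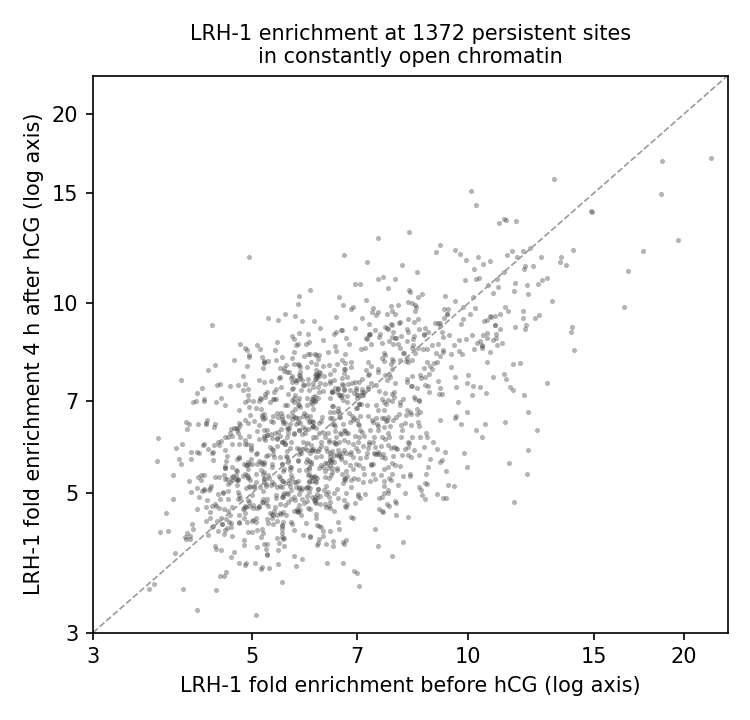
LRH-1 fold enrichment (the authors' value at the summit) of each of the 1372 members 4 h after hCG on the vertical axis and before hCG on the horizontal axis, both logarithmic, with the line of equal values dashed. The cloud follows the line loosely (Spearman's rho 0.52), and the highest points, at 17 after and 21.8 before hCG, are high on both axes.

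In each LRH-1 list, persistent sites with a FAIRE peak at that time had higher median enrichment than those without one. Members had a median fold enrichment of 6.28 after hCG, close to the 6.27 of the 327 persistent sites open after hCG alone, and above the 5.7 of the 873 with one solely before hCG and the 5.68 of the 1368 with none. In the list before hCG, members stood at 6.21 and the sites with a FAIRE peak only before hCG at 6.3, above the 5.61 of sites with one only after hCG and the 5.69 of sites with none. The 95% intervals of the medians did not overlap between the classes with and without a FAIRE peak at that time. LRH-1 peaks of members were also wide, with medians of 400.5 bp after and 321.5 bp before hCG, against 337 bp after and 290.5 bp before hCG at persistent sites with no FAIRE peak. Persistent sites open at a single time were as wide at that time, with medians of 406 bp after hCG for those open after hCG and 326 bp before hCG for those open before it. These classes come from the same lists, so this is a description and no test of a difference.

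**Figure D2:**
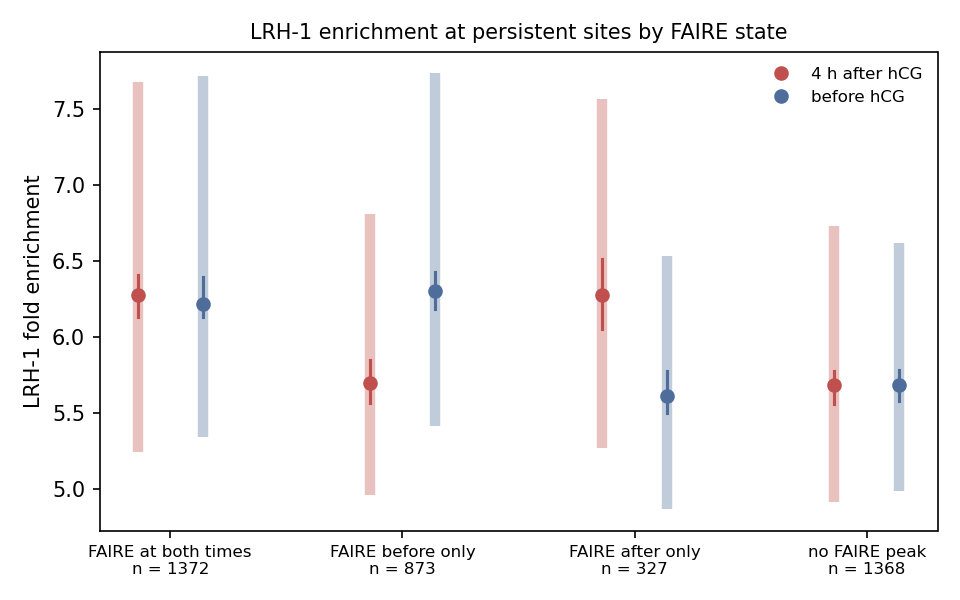
LRH-1 fold enrichment of persistent sites by FAIRE state, members at the left, 4 h after hCG (red) and before hCG (blue). Points are medians, thin lines their 95% intervals from order statistics, and broad bars the range from the lower to the upper quartile. Medians lie between 6.21 and 6.3 at times with a FAIRE peak and between 5.61 and 5.7 at times without one.

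Within chromatin that was open at both times, the members can be set beside sites where LRH-1 was seen at a single time. FAIRE scores are the authors' own values, on a scale that the sources used here do not state, and rank peaks within 1 list. The lists had median scores of 71.4 after and 70.5 before hCG. Members lay in FAIRE peaks with median scores of 99 after hCG (95% interval 94.6 to 103) and 119 before it (114 to 124). The 948 LRH-1 peaks gained in constantly open chromatin had 103 after and 87.3 before hCG. The 284 LRH-1 peaks lost in such chromatin had 73.4 after and 112 before hCG. In the list after hCG the members and the gained sites thus lay above the list median and the lost sites near it, and in the list before hCG all 3 classes lay above it, the gained sites least. FAIRE peaks of both times with no LRH-1 peak at all had median scores of 83.2 after and 91 before hCG, and median widths of 901 bp after and 929 bp before hCG. Those with a member had median widths of 972.5 bp after and 1037 bp before hCG.

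**Figure D3:**
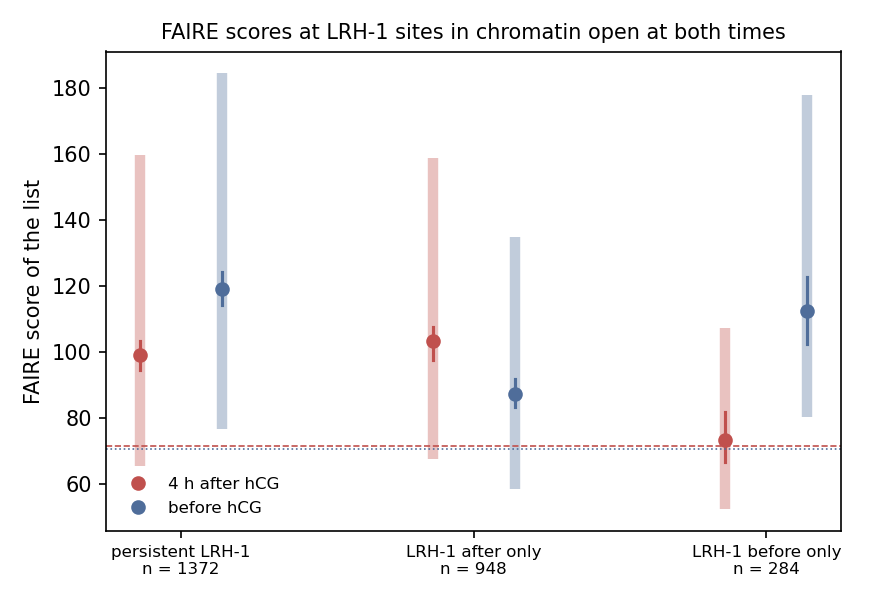
FAIRE scores, 4 h after hCG (red) and before hCG (blue), at LRH-1 sites with FAIRE peaks at both times: members, LRH-1 peaks seen after hCG only and LRH-1 peaks seen before hCG only. Points are medians, thin lines their 95% intervals and broad bars the quartiles, and the dashed and dotted lines are the medians of the whole lists, 71.4 after and 70.5 before hCG. Members are at 99 after and 119 before hCG, and sites bound only before hCG at 73.4 after and 112 before.

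Members differed widely in FAIRE score. The scores ran from 40 to 800 after hCG and from 40.2 to 901 before it. Of the members, 811 (59.1%) were above the list median in both FAIRE lists, 159 only in the list after hCG, 280 only in the list before hCG and 122 in neither. Spearman's rho between the FAIRE scores after and before hCG was 0.41.

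High FAIRE scores went with both weak and strong LRH-1 peaks. The highest FAIRE scores of members at both times were 799.7 after and 901 before hCG at chr17:34740154-34740572, where LRH-1 was 5.2-fold enriched after and 5.72-fold before hCG. At chr11:34495184-34495831 the score was 575 after and 819 before hCG, and LRH-1 was 14-fold enriched after and 14.8-fold before hCG. Next after hCG came chr19:6996626-6997003 with a score of 554 after and 544 before hCG, chr2:84517770-84518149 with 543 after and 651 before, and chr1:180117171-180117490 with 504.3 after and 437 before. LRH-1 at these 3 was 7.57-fold, 8.36-fold and 5.52-fold enriched after hCG and 5.75-fold, 5.72-fold and 4.58-fold before it. Next before hCG came chr10:80288653-80289007 with a score of 489 after and 734 before hCG, then the site on chromosome 11 at 53953543 named above, and chr10:79896460-79896787 with 502 after and 672 before. LRH-1 at the 2 sites on chromosome 10 was 9.81-fold and 11.3-fold enriched after hCG and 9.25-fold and 12-fold before it. Over all members, Spearman's rho between LRH-1 fold enrichment and FAIRE score was 0.08 after and 0.13 before hCG, and with the FAIRE score of the other time 0.0018 for LRH-1 after hCG and -0.06 for LRH-1 before it. Correlations this weak are given as values only.

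A set of 30 of the 1372 members (2.19%) stood in the best-scoring 10% of all 4 lists (a group chosen after the values were seen). They were picked for strong LRH-1 q-values and high FAIRE scores, so high values are built into this group. Their LRH-1 enrichment had a median of 9.69 after hCG, from 6.01 to 16.8, and of 10.7 before it, from 6.81 to 18.6. The best-scoring of them were the members named above on chromosomes 11, 15, 13 and 2, with 350.8, 360, 380 and 339 as their FAIRE scores after hCG.

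Members whose FAIRE score ranked higher after hCG also tended to have LRH-1 rank higher after hCG. For this, each member was ranked among the 1372 by fold enrichment and by FAIRE score at each time, which gives lists of equal length, and the rank before was taken from the rank after. The differences of rank in LRH-1 and in FAIRE had a Spearman's rho of 0.24 (n = 1372 sites; whether these lists share a control library is unknown). The members were then put into 4 equal groups of 343 by their difference in FAIRE rank. In the group where FAIRE rank was furthest below its rank before hCG, the median LRH-1 fold enrichment was 6 after hCG (95% interval 5.8 to 6.23) and 6.72 before it (6.5 to 7.11), and LRH-1 ranked higher after hCG at 120 members (35%). In the next groups the medians were 6.24 after and 6.27 before hCG, then 6.33 after and 6.19 before hCG, and LRH-1 ranked higher after hCG at 166 members (48.4%) and 179 members (52.2%). In the group where FAIRE rank was furthest above it, the medians were 6.49 after (6.27 to 6.66) and 5.9 before hCG (5.74 to 6.08), and LRH-1 ranked higher after hCG at 218 members (63.6%, 95% interval 58.2 to 68.7). Over all members 683 (49.8%) ranked higher after hCG. How much of this follows from the way peaks were detected in each list was not tested.

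**Figure D4:**
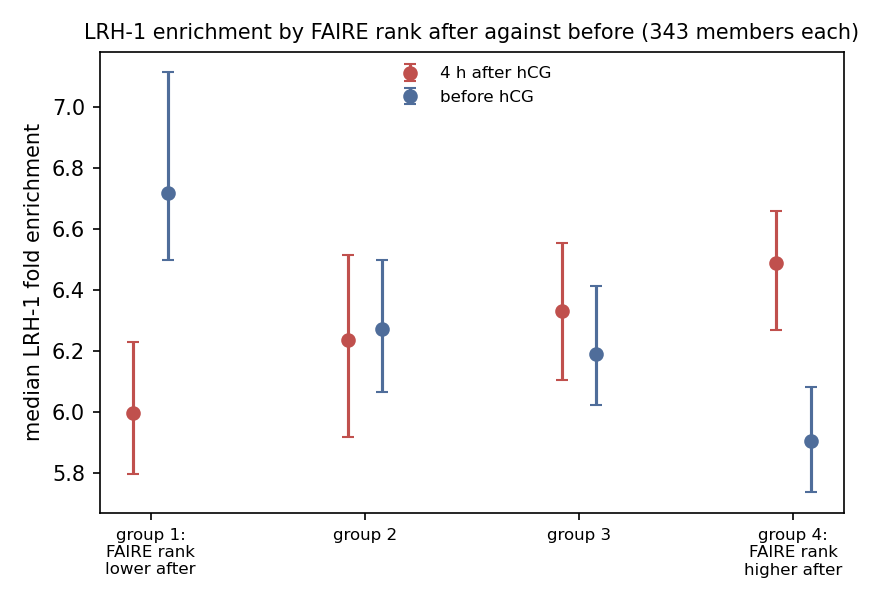
Median LRH-1 fold enrichment 4 h after hCG (red) and before hCG (blue), with 95% intervals of the median, in 4 equal groups of 343 members ordered by FAIRE rank after minus before hCG. The medians cross, from 6 after and 6.72 before hCG in group 1 to 6.49 after and 5.9 before hCG in group 4. The whole lists had medians of 5.31 after and 5.75 before hCG, so the point of crossing also depends on the scale of each list.

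The largest differences of LRH-1 rank show the range (sites chosen after their values were seen). At chr10:55948672-55949100 LRH-1 was 9.25-fold enriched after and 4.39-fold before hCG, with FAIRE scores of 62.5 after and 86.7 before. At chr4:116345336-116345719 it was 11.9-fold enriched after and 4.95-fold before hCG, with FAIRE scores of 334 after and 281 before. At chr11:84981013-84981450 it was 7.98-fold enriched after and 4.44-fold before hCG, with FAIRE scores of 100 after and 58.7 before. In the other direction, chr13:102304873-102305137 was 4.83-fold enriched after and 11.6-fold before hCG, with FAIRE scores of 46.9 after and 170 before. At chr14:35473760-35474063 the fold was 4.18 after and 8.13 before hCG, with FAIRE scores of 80 after and 265 before. At chr3:129252420-129252906 the fold was 3.97 after and 7.83 before hCG, with FAIRE scores of 41 after and 90.9 before. Among the 1372 members, counted from the highest FAIRE score, the 3 with lower LRH-1 rank after hCG ranked 1272, 870 and 1354 after and 410, 151 and 906 before hCG. Of the 3 with higher LRH-1 rank, the sites on chromosomes 4 and 11 ranked higher in FAIRE after hCG (49 and 678 after, 125 and 1201 before) and the site on chromosome 10 lower (1063 after, 942 before).

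The summits of a member after and before hCG lay a median of 41 bp apart (quartiles 20 and 76), against 40 bp at persistent sites open before hCG only, 50 bp at those open after hCG only and 47 bp at those with none. The centres of the 2 FAIRE peaks of a member lay a median of 63 bp apart. The largest distances between summits were 786 bp at chr13:55290567-55292086, a LRH-1 peak 1520 bp wide, 630 bp at chr4:47307195-47307653 and 549 bp at chr7:56491317-56491568. Another member lay 86 bp from the site on chromosome 4 and 52 bp from that on chromosome 7. The site on chromosome 4 and its neighbour matched the same LRH-1 peak before hCG.

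LRH-1 summits lay near the middle of the open region, as at other LRH-1 sites. The summit lay inside the FAIRE peak of the same time at 1318 members after hCG (96.1%) and at 1341 before it (97.7%). Its median distance from the FAIRE centre was 91 bp after (quartiles 41 and 198) and 89 bp before hCG (37.5 and 181), in FAIRE peaks with median widths of 973 bp after and 1038.5 bp before hCG. Within 100 bp of the centre lay 53.4% of members after hCG (95% interval 50.7 to 56.1), against 45.9% of LRH-1 peaks gained in constantly open chromatin (42.7 to 49.1), 50.9% of those gained at FAIRE peaks seen only after hCG (48.1 to 53.7) and 49.5% of persistent sites open after hCG only (44 to 55.1). Before hCG, members lay farther from the centre, at a median of 89 bp (95% interval 81.5 to 95), than persistent sites open before hCG only, at 74 bp (67.5 to 79.5), and lost sites open before hCG only, also at 74 bp (67 to 81). Lost sites with FAIRE peaks at both times lay as far from it as members, at 90.5 bp (80 to 105.5). FAIRE peaks before hCG were narrower in both nearer classes, with medians of 951 and 964 bp against 1038.5 bp for members. Members were also put into 4 equal groups by the distance after hCG. The median fold enrichment after hCG was 6.41, 6.62 and 6.28 in the nearer groups and 5.76 in the group at 198 bp or more. That group had the highest median FAIRE score after hCG (119, against 84.1 in the nearest group). FAIRE widths of these groups are not given here, and a far summit needs a wide FAIRE peak or a place near its edge. Among the 5 members with the highest FAIRE scores after hCG, the summit on chromosome 17 lay 528 bp from the FAIRE centre after hCG. Those on chromosomes 11 (at 34495184), 19, 2 and 1 lay 259.5, 146.5, 409 and 125 bp from it.

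**Figure D5:**
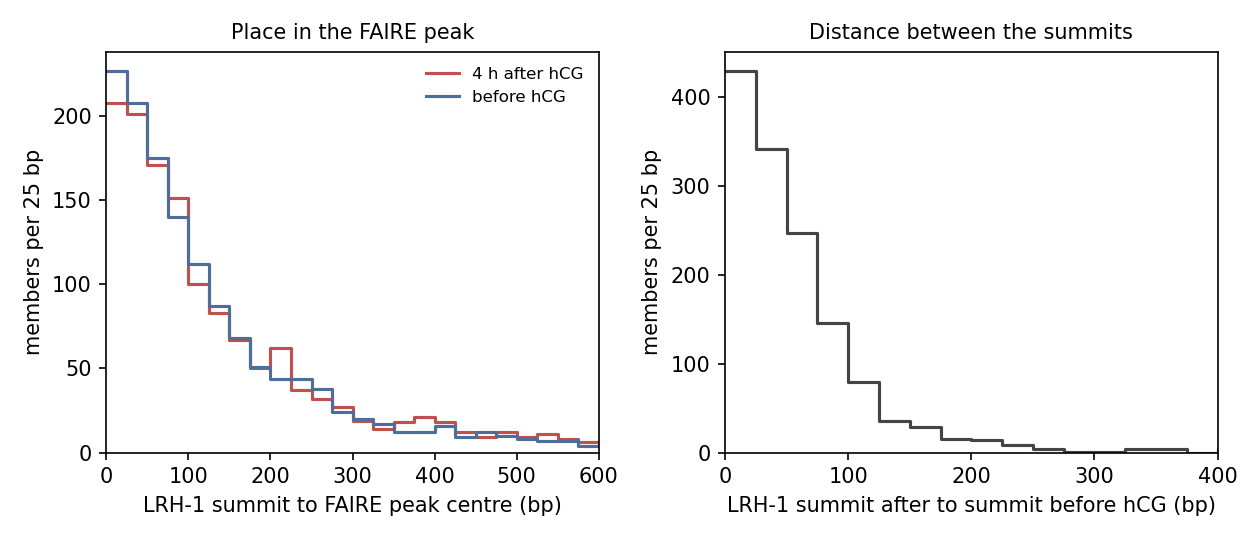
Left, distance from the LRH-1 summit to the centre of the FAIRE peak of the same time, 4 h after hCG (red) and before hCG (blue), and right, distance between the LRH-1 summits of the 2 times, as numbers of members per 25 bp. Medians are 91 bp after and 89 bp before hCG on the left and 41 bp on the right, and distances past 600 and 400 bp lie outside the axes.

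Members were scattered over the genome. Their number ran from 12 on chromosome X and 34 on chromosome 19 to 105 on chromosome 1. As a share of LRH-1 peaks after hCG on the chromosome it ran from 12.2% on chromosome 8 (95% interval 9.36 to 15.6) to 19.6% on chromosome 10 (16.2 to 23.4). As a share of FAIRE peaks of both times it was lowest on chromosome X, where 12 of 184 held a member (6.52%, 95% interval 3.42 to 11.1), and highest on chromosome 10, at 97 of 657 (14.8%, 12.1 to 17.7). Over all chromosomes that share was 11.8%. Chromosome X held 95 of the 9413 LRH-1 peaks after hCG (1.01%) and 184 of the 11535 FAIRE peaks of both times (1.6%). Members were 12 of those 95 LRH-1 peaks (12.6%, 6.7 to 21), against 14.6% of the whole list. The gap to the nearest other member had a median of 280523 bp, and 65 members (4.74%) lay within 10 kb of another member. The same share was 4.31% among persistent sites with no FAIRE peak and 3.48% among sites gained in constantly open chromatin, each within its own class. Windows of 1 Mb with a member mostly held a single member (512 windows), and 3 windows held 6. These were at chr4:40000001-41000000, where LRH-1 was 4.56-fold to 8.51-fold enriched after hCG, at chr4:149000001-150000000 (3.93-fold to 8.23-fold) and at chr9:66000001-67000000 (5.93-fold to 8.95-fold). The window at 149 Mb held 10 gained LRH-1 peaks as well, and the other windows 3 and 4.

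FAIRE peaks seen at a single time lay near members about as often as near other LRH-1 sites. Within 10 kb, 290 members (21.1%) had a FAIRE peak seen only after hCG and 218 (15.9%) one seen only before hCG. The same shares were 22.1% for a peak seen only after hCG and 18.9% for one seen only before hCG at persistent sites with no FAIRE peak, and 21% and 15%, in that order, at sites gained in constantly open chromatin. A gained LRH-1 peak lay within 10 kb of 150 members (10.9%, 95% interval 9.33 to 12.7), against 183 of the 1368 persistent sites with no FAIRE peak (13.4%, 11.6 to 15.3), 12.7% of those open before hCG only and 11% of those open after hCG only. A lost LRH-1 peak lay within 10 kb of 69 members (5.03%), against 5.92%, 6.41% and 5.5% of these 3 classes in the same order. In 13 FAIRE peaks after hCG, 2 members shared the same open region. The best-scoring of these FAIRE peaks, chr4:47306174-47307502, overlapped members with summits 693 bp apart. Their fold enrichments after hCG were 6.81 and 3.2, and the summit of the weaker, at 47307507, lay just past the end of the FAIRE peak. Both members matched the same LRH-1 peak before hCG, which was 5.06-fold enriched. The next FAIRE peaks were chr7:35590424-35591950, with members 5.13-fold and 5.28-fold enriched, and chr2:121586177-121588048, with members 5.34-fold and 4.27-fold enriched.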

How the data were processed

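Per the submitters' processing notes, the tools were BWA, MACS2 2.1.0 and bedtools and the build was mm9, with no role or order given. In the deposited FAIRE files each peak has its coordinates and a score of 40 or more, and peak names begin with MACS. In the deposited LRH-1 files each peak has its summit, its fold enrichment (a ratio), its −log10 p-value, its −log10 q-value and an integer score, all made by the authors. Peak-calling settings, control libraries, read depths and the pooling of replicates are not given in the sources used here, so the depth behind a value is unknown.

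Overlaps, distances and medians were computed with scipy 1.17.1, pandas 2.3.3 and numpy 2.4.6 under Python 3.11.15, and the overlap code was tested on simulated peaks. A member with several partners in a list was given the one with the longest overlap. The FAIRE centre is the midpoint of the peak. Printed starts count from 1. Intervals of shares are exact (Clopper-Pearson), and those of medians come from order statistics, both at 95%. Named regions are the best-scoring 5 members of each list, the 3 with the largest and the 3 with the smallest fold enrichment after hCG, the 3 with the largest summit distance, the 3 with the smallest overlap, the 3 nearest non-members, and the windows and FAIRE peaks with most members. The members, classes and rules were chosen with earlier results of these data known. Alternatives were other rules of overlap, stricter thresholds, lists of equal length and the other LRH-1 list. The relation of rank differences and its alternatives were added after the data were seen. The RNA libraries were not used here, since no peak was linked to a gene. The planned sequence motif search, gene distances and RNA comparison were therefore not run.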

Additional observations from a re-analysis of the deposited data

How the results depend on the processing

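The number of members was 966 to 1405 under the 7 alternatives, within 1.5 times of 1372. Of 79 recomputed values, 63 stayed within the limits set for them (the 95% interval of a median, share or rho, or 1.5 times for a count) and 16 moved past them. With FAIRE peaks scoring at least 60 only, members were 24.5% of persistent LRH-1 peaks, their median FAIRE scores were 124 after and 144 before hCG, the LRH-1 summit after hCG lay 102.5 bp from the FAIRE centre, and 3.52% lay within 10 kb of another member; this filter removes members with low scores by construction. With lists of equal length the share of persistent peaks was 36.7%, and the median fold enrichment 6.59 after and 6.46 before hCG. With overlaps of at least 50% of the LRH-1 peak, the share was 33.1%, the median fold 6.43 after and 6.42 before hCG, and the distance to the centre after hCG 84.5 bp. With the summit inside the other peaks, the median fold after hCG was 6.42 and that distance again 84.5 bp. With LRH-1 peaks at a −log10 q of at least 5, the median fold before hCG was 6.41, and this filter removes members with weak q-values by construction. Except where stated, the cause was not tested. The rho of the rank differences was 0.289 with LRH-1 ranked by −log10 q and 0.236 to 0.289 over its 9 alternatives. The distance between summits stayed at 39 to 41.5 bp. No paired analysis was possible because each assay has 1 list per time and no test was made, and no replicate could be left out. Planned windows for motifs and distances to gene starts were not run, as no mm9 sequence or annotation was used here. Without read depths, it is unknown how many weak peaks each list misses.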
